A study of Mus musculus with 8 samples.

Results

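The genes described here are the cytosolic translation initiation and elongation factors and the factors of mitochondrial translation. Every gene of the value table was taken whose platform symbol starts with Eif and a digit or with Eef1 or Eef2, or is Tufm, Tsfm, Gfm1, Gfm2, Mtif2 or Mtif3. This gave 64 genes of 16593 in the table. The rule goes by name and uses no measured value, so it also takes in eIF2 kinases, eIF4E repressors and methyltransferases that modify elongation factors. The RNA came from an immortalized mouse brown adipocyte line, a culture model of the heat-producing fat cell, that had been differentiated for 8 days. For the last 18 h the cells received 10 µM of the compound Z16078526 (4 arrays) or its DMSO vehicle (4 arrays), and the stated aim was to characterize what the compound does to these cells. Whether the 4 samples of each group were grown separately is not stated, so the p-values cover the spread between samples that may be technical repeats. All values are from 1 line.

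Translation starts when eIF2, loaded with GTP and initiator tRNA, joins the small ribosomal subunit together with eIF1, eIF1A, eIF3 and eIF5. The exchange factor eIF2B reloads eIF2 with GTP, and kinases that phosphorylate eIF2 block this step under stress, which lowers general translation while mRNAs such as that of the transcription factor ATF4 are translated more. The mRNA is brought in by eIF4F, in which eIF4E holds the cap, eIF4G is the scaffold and eIF4A unwinds RNA, and the 4E-binding proteins hold eIF4E back when mTORC1 is inactive. Elongation runs on eEF1, which delivers aminoacyl-tRNA, and eEF2, which moves the ribosome along the mRNA. Mitochondria use a separate bacterial-type set, which makes the respiratory chain subunits encoded in mitochondrial DNA.

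Values are log2 intensities with a floor of 4 (an intensity of 16), and a difference is always Z16078526 minus DMSO. Across all genes, pairs of arrays had an r of 0.9929 to 0.9952 within Z16078526, 0.9888 to 0.9925 between the groups and 0.9959 to 0.9966 within DMSO. Of 7 adipocyte markers none was at the floor on all arrays, 2 were higher (Fabp4 by 1.66 and Cidec by 0.85 on the log2 scale, adjusted p = 0.000449 and 0.00186 in limma) and 1 was lower (Pparg, -0.44, adjusted p = 0.00309). Their summed intensity was 72230 to 77384 on the Z16078526 arrays and 73893 to 77096 on the DMSO arrays. The brown fat genes Prdm16 and Dio2 had no array above the floor and Ucp1 averaged 6.25 with Z16078526 and 4.87 with DMSO. The 7 brown fat genes summed to an intensity of 3969 to 4886 on the Z16078526 arrays and 2376 to 2691 on the DMSO arrays, with 3 higher. Of 4 macrophage markers, 2 were at the floor on every array (Ptprc and Lyz2), as were 4 of 6 endothelial markers (Cdh5, Kdr, Tie1 and Vwf) and 3 of 5 muscle markers (Myod1, Myf5 and Ckm). The macrophage list summed to 68 to 89 with Z16078526 and 64 to 78 with DMSO, the endothelial list to 96 to 110 with Z16078526 and 98 to 116 with DMSO, and the muscle list to 245 to 337 with Z16078526 and 351 to 412 with DMSO. Each gene adds at least the floor of 16 to such a sum, so the macrophage and endothelial sums are mostly floor. Tek, an endothelial marker close to the floor (-0.21, adjusted p = 0.00755 in limma), and the muscle marker Des (-0.48, adjusted p = 0.0372) were lower. The summed intensity of 7 preadipocyte and fibroblast markers was 4651 to 6002 on the Z16078526 arrays and 5935 to 6749 on the DMSO arrays, with Dcn and Col3a1 lower and none higher. The part of these markers in the results below was not tested. In bulk RNA, fewer cells of a type and less RNA per cell cannot be told apart. Arrays Z16078526 1 and Z16078526 3 differed from each other for some probes. Their comparison does not tell which of them stood apart, and in Eif4b and Gfm1 Z16078526 3 lay close to Z16078526 4. Of 49 translation factor genes with a mean log2 above 7, 5 lay over 0.5 lower on Z16078526 3 than on Z16078526 1 (Eef2, Eif3c, Eif4b, Eif4g2 and Gfm1) and 0 lay over 0.5 higher. Between any pair of DMSO arrays, 0 to 1 of these genes differed by over 0.5. Of all 6210 such genes, 339 were lower and 279 higher by this much on Z16078526 3.

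Treated cells had more mRNA signal for the gamma subunit genes of eIF2, for Eif1a and for the mitochondrial elongation factor Gfm1, and less for helper proteins of the eIF4A helicase, a cap-binding homologue, the eIF4E repressor Eif4ebp2 and the elongation factor Eef2. In limma, 19 of 64 translation factor genes passed an adjusted p of 0.05 over all genes, 11 higher and 8 lower. This is 29.7% of them, while 15.2% of all genes were called, 7.97% higher and 7.19% lower. Many genes had no signal: of the 55 translation factor genes above the floor on at least 1 array 34.5% were called (20.0% higher and 14.5% lower), against 22.7% of all genes with such signal (11.9% higher and 10.8% lower). Called differences were small, 0.23 to 0.91 on the log2 scale, and 6 of the 19 exceeded 1.5-fold, 3 in each direction (9.38% of 64, against 5.33% of all genes, 2.83% higher and 2.50% lower). The groups did not overlap in 15 genes that were higher and 8 that were lower, 35.9% of 64 against 19.8% of all genes (10.6% higher and 9.20% lower). The median difference over the 64 genes was 0.00 (0.01 over the 55 with signal), beside 0.00 over all genes (0.03 over those with signal).

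Of the 64 genes, 52 were above the floor on all arrays, 9 on none and 3 on some (Eef1a1, Eef1a2 and Mtif2).

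**Figure D1:**
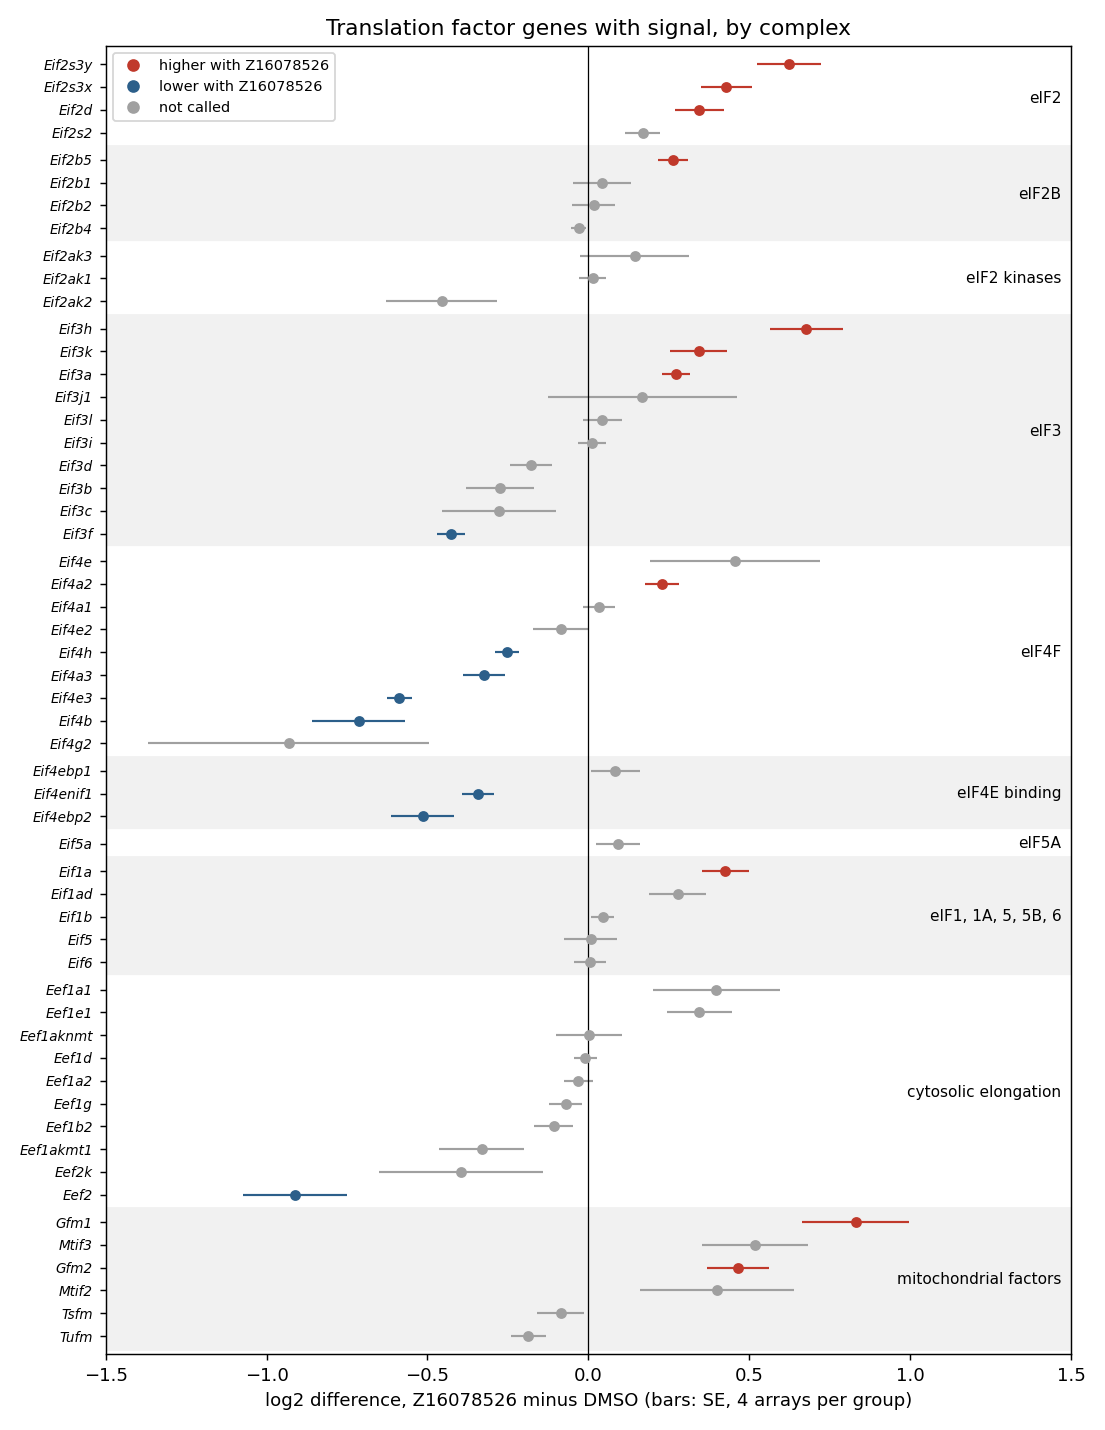
Log2 difference (Z16078526 minus DMSO, horizontal axis) with its SE for the 55 translation factor genes above the floor on at least 1 array, grouped by complex down the page. The 3 called eIF2 genes lie right of 0, 4 of the 5 called eIF4F genes lie left of it, and Eef2 (-0.91) and Gfm1 (0.83) are the called genes at the ends of the range.

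How firmly the calls stood differed between genes. Of the 19 calls, 12 were kept whichever single array was left out, and 7 were lost without at least 1 array (Eif2d, Eif3k, Eif4a2, Eif4a3, Eif4b, Gfm1 and Gfm2). With the replicate number as a block in the fit, 7 of the 19 calls were kept. The calls of Eef2, Eif1a, Eif2d, Eif2s3y, Eif3a, Eif3h, Eif3k, Eif4a2, Eif4b, Eif4ebp2, Eif4enif1 and Gfm2 were lost there. Whether that number pairs arrays is not stated, and these losses are not repeated for each gene below. The number of higher genes was 11 with all arrays and lower by over 1.5 times without Z16078526 2 (6), Z16078526 4 (7), DMSO 1 (7) or DMSO 3 (6). The number of lower genes lay between 6 and 9 without any 1 array.

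**Figure D2:**
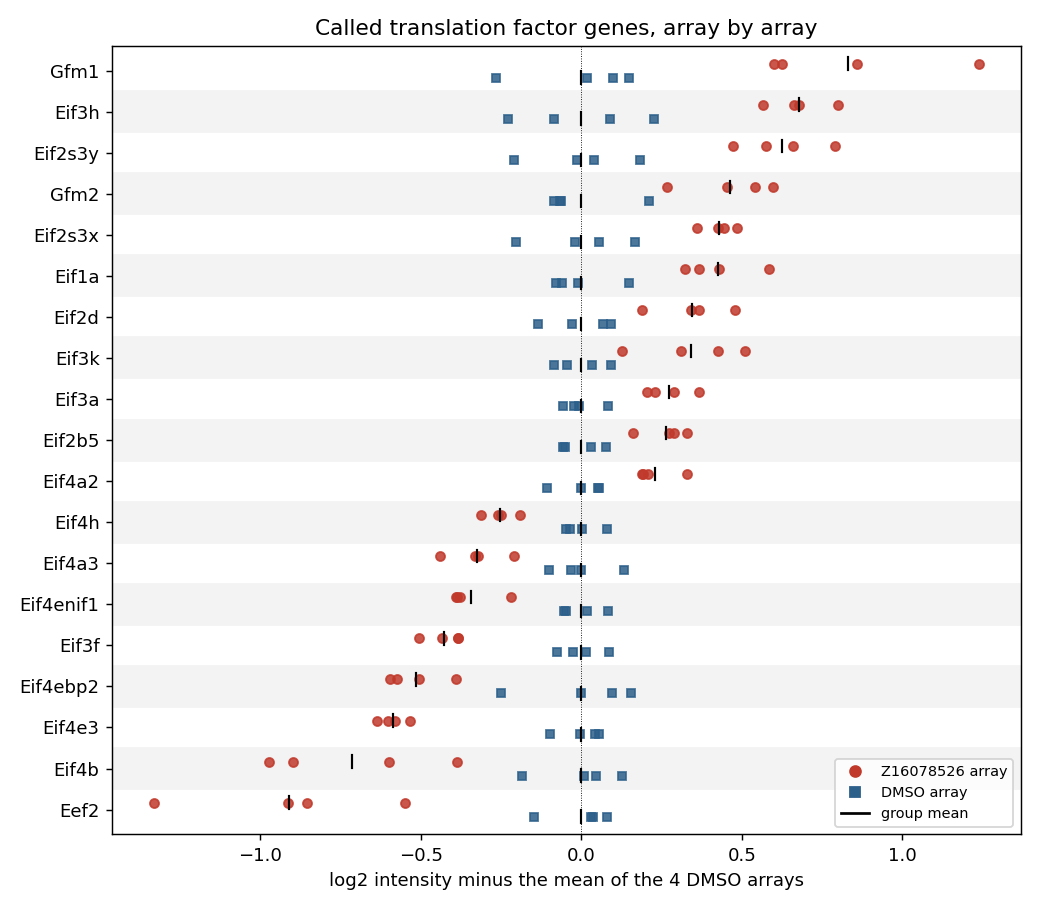
Each of the 19 called genes on the 8 arrays, as log2 intensity minus the mean of the DMSO arrays (horizontal axis). Circles are Z16078526 arrays, squares DMSO arrays and black ticks the group means; in all 19 genes the circles and squares do not overlap, and the spread of the circles is widest for Eef2, Gfm1 and Eif4b.

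Sequence around the annotated start was read from RefSeq promoters (GRCm38.p6), of which 50 of the 64 genes had one. Many mRNAs of the translation machinery begin with a C followed by a run of pyrimidines, through which mTORC1 controls their translation, and the genes below are shown because their starts carry such a run and they were called. A C within 5 bases of the annotated start followed by at least 5 C or T on the gene's strand was found in 9 of 50 translation factor genes (18.0%), against 12.1% of 13335 genes of the table with a promoter. The 5 called genes are given as 30 bases around the run, which is in capitals.
Eif2s3x, chrX:94212632-94212661, - strand: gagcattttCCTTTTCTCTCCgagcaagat
Eif2s3y, chrY:1010587-1010616, + strand: ccacagccaCTTCCTTCTTTCgtgagcaag
Eif2b5, chr16:20498802-20498831, + strand: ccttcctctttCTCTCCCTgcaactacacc
Eif3f, chr7:108934404-108934433, + strand: ttctaggCTCTCTCTCTTTCTCggcaagat
Gfm1, chr3:67430098-67430127, + strand: cctcctgaccttCCTCCCggaagtgctcct
The capitals start at the C found within the search limit, so pyrimidines before it stand in lower case, as in Eif2b5 and Gfm1, and the capitals do not give the full length of a pyrimidine stretch. Of these genes Eif3f was lower and the other 4 higher. Eef1a1, Eif2ak4, Eif2b2 and Eif3l carried a run and were not called.

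The palindrome CACGTG, the E-box bound by MYC, USF and the clock factors, was searched on both strands from 250 bases before to 50 bases after the start. It was found in 12 of 50 translation factor genes (24.0%), against 9.68% of 13335 genes. The 5 called genes that hold it are shown with it in capitals, together with the cAMP response element TGACGTCA of Eef2, which no other of the 50 held (2.00%, against 2.70% of 13335 genes). Neither match overlaps the other.
Eef2, chr10:81176576-81176605, + strand: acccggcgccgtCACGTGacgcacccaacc
Eif3a, chr19:60790654-60790683, - strand: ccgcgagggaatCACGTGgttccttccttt
Eif3f, chr7:108934335-108934364, + strand: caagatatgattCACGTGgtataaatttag
Eif3k, chr7:28981915-28981944, - strand: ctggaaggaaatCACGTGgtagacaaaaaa
Eif4h, chr5:134639488-134639517, - strand: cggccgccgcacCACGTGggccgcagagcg
Eef2 (response element), chr10:81176622-81176651, + strand: aggccgggcgtTGACGTCAgcggtctcttc
Among these, Eif3a and Eif3k were higher and Eef2, Eif3f and Eif4h lower, so genes with the same letters went both ways. TGATGNAAT, the element bound by ATF4 with C/EBP factors, was in 0 of the 50 windows and in 108 of 13335 (0.810%). Such matches describe letters and are not evidence of binding.

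Of 4 genes named for eIF2, 3 were higher. The gamma subunit, which carries GTP and the initiator tRNA, is encoded by a pair of near-identical genes on the X and the Y chromosome, and their probes may each take up RNA of the other. The Y copy Eif2s3y read 9.49, 9.31, 9.62 and 9.41 on the Z16078526 arrays, against 9.02, 8.87, 8.63 and 8.82 on the DMSO arrays. All treated values lay above all DMSO values, a 1.54-fold rise (log2 difference 0.62 ± 0.10 SE, adjusted p = 0.00878, limma, 4 arrays a group, as below). The X copy Eif2s3x read 11.08, 11.14, 11.10 and 11.02 on the Z16078526 arrays, against 10.71, 10.83, 10.64 and 10.45 on the DMSO arrays. It also did not overlap and rose 1.35-fold (log2 difference 0.43 ± 0.08 SE, adjusted p = 0.0136). Eif2d, a separate factor that can bring tRNA to the ribosome without GTP, read 9.46, 9.61, 9.64 and 9.75 on the Z16078526 arrays, against 9.34, 9.13, 9.24 and 9.36 on the DMSO arrays. Its 1.27-fold rise was called (log2 difference 0.34 ± 0.08 SE, adjusted p = 0.0259), but the call was lost without any 1 array other than Z16078526 1 or DMSO 4 (adjusted p 0.0519 to 0.0743). The beta subunit gene Eif2s2 had a difference of 0.17 (adjusted p = 0.0945) and was called without Z16078526 1 (0.047). A second, dimmer probe of Eif2s2 had a difference of -0.06. The alpha subunit gene Eif2s1, which holds the phosphorylated serine, was not analysed here.

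Of 4 genes of eIF2B, the factor that reloads eIF2, 1 was higher. Eif2b5, the catalytic epsilon subunit, read 11.91, 11.95, 11.90 and 11.78 on the Z16078526 arrays, against 11.65, 11.70, 11.57 and 11.57 on the DMSO arrays. It rose without overlap (log2 difference 0.26 ± 0.05 SE, adjusted p = 0.012), and its call was kept in all 21 other settings. A second probe of similar range gave 0.33 (adjusted p over all probes = 0.0134) and a dimmer one 0.13 (0.446). The regulatory subunit genes Eif2b1, Eif2b2 and Eif2b4 had differences of 0.04, 0.02 and -0.03 (adjusted p 0.599 to 1).

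In limma none of the 4 eIF2 kinase genes was called, and 1, Eif2ak2, had an unadjusted p under 0.05. Eif2ak3, whose product PERK senses unfolded protein in the endoplasmic reticulum, read 7.98, 7.96, 8.22 and 7.86 on the Z16078526 arrays, against 7.79, 8.33, 7.63 and 7.69 on the DMSO arrays, and the groups overlapped (log2 difference 0.14 ± 0.17 SE, adjusted p = 0.828, 95% interval of the difference -0.27 to 0.55). Eif2ak1, the haem-regulated kinase, had a difference of 0.01 (adjusted p = 1). Eif2ak2, which encodes the kinase PKR that is activated by double-stranded RNA, had -0.46 (adjusted p = 0.151), with DMSO 4 (10.09) inside the treated range of 9.97 to 10.17. The probe of Eif2ak4, the amino acid sensor GCN2, lay at the floor on all 8 arrays.

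Among the factors of start site scanning and subunit joining, Eif1a was the called one of 7. It encodes eIF1A, which helps the small subunit scan for the start codon, and read 10.54, 10.58, 10.80 and 10.64 on the Z16078526 arrays, against 10.36, 10.15, 10.14 and 10.20 on the DMSO arrays. The groups did not overlap and the rise was 1.34-fold (log2 difference 0.43 ± 0.07 SE, adjusted p = 0.011). Its X-linked paralogue Eif1ax, and Eif5b, the GTPase of subunit joining, lay at the floor on all arrays. Eif1ad, a relative with an eIF1A domain, had a difference of 0.28 (adjusted p = 0.0903). Eif1b, Eif5 (the GTPase activator of eIF2) and Eif6 (which keeps the large subunit apart from the small one) had differences of 0.04, 0.01 and 0.00.

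Genes of eIF3, the large scaffold complex on the small ribosomal subunit, went both ways: 3 of 12 rose, 1 fell, 6 with signal were not called and 2 (Eif3e and Eif3m) lay at the floor on all arrays. Eif3h read 7.41, 7.32, 7.43 and 7.55 on the Z16078526 arrays, against 6.52, 6.84, 6.66 and 6.97 on the DMSO arrays, a 1.60-fold rise without overlap (log2 difference 0.68 ± 0.11 SE, adjusted p = 0.00987). Eif3a, the largest scaffold subunit, read 11.86, 11.72, 11.78 and 11.70 on the Z16078526 arrays, against 11.44, 11.58, 11.49 and 11.47 on the DMSO arrays, and rose 1.21-fold (log2 difference 0.27 ± 0.04 SE, adjusted p = 0.00931). A dimmer probe of Eif3a moved the same way by 1.66 (adjusted p over all probes = 0.0143), against a DMSO mean of 4.36 close to the floor, and the remaining probe was at the floor. Eif3k, a small peripheral subunit, read 10.90, 11.09, 11.20 and 11.29 on the Z16078526 arrays, against 10.73, 10.81, 10.69 and 10.87 on the DMSO arrays. Its call (log2 difference 0.34 ± 0.09 SE, adjusted p = 0.0454) was lost without any 1 array other than Z16078526 1 (adjusted p 0.0711 to 0.121), with a floor of 50 (0.0602) and without the intensity trend (0.0512).

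Eif3f, a subunit that also serves as a docking site for mTOR signalling in muscle, was the eIF3 gene that fell. It read 13.28, 13.23, 13.16 and 13.28 on the Z16078526 arrays, against 13.75, 13.64, 13.59 and 13.68 on the DMSO arrays. All 4 treated values lay below all DMSO values, by 1.34-fold (log2 difference -0.43 ± 0.04 SE, adjusted p = 0.0018), and the call was kept in all 21 other settings. Of the eIF3 genes with signal that were not called, Eif3b had -0.27 (adjusted p = 0.16), Eif3c -0.28 (adjusted p = 0.473) and Eif3d, a subunit that can bind caps itself, -0.18 (adjusted p = 0.145). Eif3i and Eif3l had 0.01 and 0.04, and the loosely bound Eif3j1 had 0.17 ± 0.29 SE at low signal.

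Of 10 genes grouped with eIF4F, 4 were lower, 1 was higher and 1, the germ cell homologue Eif4e1b, lay at the floor on all arrays. Eif4e3, a homologue of the cap-binding protein, had the smallest adjusted p of the 64 genes. It read 9.79, 9.85, 9.75 and 9.81 on the Z16078526 arrays, against 10.44, 10.38, 10.43 and 10.29 on the DMSO arrays, lower without overlap (log2 difference -0.59 ± 0.04 SE, adjusted p = 0.000525). Its second probe fell by 0.46 (adjusted p over all probes = 0.0114), and the dimmest of its 3 probes had a difference of -0.31 (0.543).

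Eif4b and Eif4h encode related proteins that stimulate the helicase eIF4A. Eif4b read 8.31, 8.10, 7.72 and 7.80 on the Z16078526 arrays, against 8.51, 8.71, 8.74 and 8.82 on the DMSO arrays. It was 1.64-fold lower with the lowest value on Z16078526 3 (log2 difference -0.71 ± 0.14 SE, adjusted p = 0.0195), and the call was lost without Z16078526 4, DMSO 2, DMSO 3 or DMSO 4 (adjusted p 0.0515 to 0.0588). Eif4h read 13.62, 13.55, 13.50 and 13.56 on the Z16078526 arrays, against 13.89, 13.78, 13.77 and 13.82 on the DMSO arrays, a tighter fall of 1.19-fold (log2 difference -0.25 ± 0.04 SE, adjusted p = 0.00726). Eif4a3, the helicase of the exon junction complex, which marks spliced mRNA, read 10.96, 10.84, 10.73 and 10.85 on the Z16078526 arrays, against 11.31, 11.07, 11.14 and 11.17 on the DMSO arrays. It was 1.25-fold lower (log2 difference -0.33 ± 0.07 SE, adjusted p = 0.0187), with the call lost without Z16078526 2 (0.0561) or DMSO 4 (0.0528).

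Eif4a2, a helicase of initiation, was the called gene of this set that was higher. It read 14.57, 14.55, 14.69 and 14.56 on the Z16078526 arrays, against 14.37, 14.42, 14.42 and 14.26 on the DMSO arrays, 1.17-fold higher (log2 difference 0.23 ± 0.05 SE, adjusted p = 0.0316). This call was lost without any 1 array (adjusted p 0.0536 to 0.0822), and a second probe had a difference of -0.04 (adjusted p over all probes = 1). Eif4a1, its more widely expressed paralogue, had a difference of 0.03 (adjusted p = 0.983). The cap-binding gene Eif4e read 5.30, 6.29, 6.50 and 6.07 on the Z16078526 arrays, against 5.60, 5.66, 5.62 and 5.45 on the DMSO arrays. This is low signal with Z16078526 1 below all DMSO arrays, and the difference of 0.46 (adjusted p = 0.406) was called without that array (0.0291). Eif4e2, the cap-binding homologue 4EHP, had -0.09 (adjusted p = 0.71). The scaffold gene Eif4g1 was not analysed here.

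Of 4 genes for proteins that bind eIF4E, 2 were lower. Eif4ebp2, a repressor released from eIF4E by mTORC1, read 7.66, 7.60, 7.58 and 7.78 on the Z16078526 arrays, against 8.32, 8.26, 8.17 and 7.92 on the DMSO arrays, 1.43-fold lower without overlap (log2 difference -0.52 ± 0.10 SE, adjusted p = 0.015). Eif4enif1, which carries eIF4E into the nucleus and into processing bodies, read 10.03, 9.87, 9.86 and 9.86 on the Z16078526 arrays, against 10.20, 10.27, 10.20 and 10.33 on the DMSO arrays. It was 1.27-fold lower (log2 difference -0.34 ± 0.05 SE, adjusted p = 0.00626), but a second, dimmer probe had a difference of 0.04, and with the mean of both probes the call was lost (0.119). Eif4ebp1, the best known repressor and a target of ATF4, read 14.01, 13.95, 14.17 and 13.93 on the Z16078526 arrays, against 13.92, 13.79, 13.95 and 14.06 on the DMSO arrays. The groups overlapped (log2 difference 0.08 ± 0.08 SE, adjusted p = 0.684, 95% interval of the difference -0.10 to 0.27). Eif4ebp3 lay at the floor on all arrays.

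Of 11 cytosolic elongation genes, Eef2 was lower and none was higher. Eef2 moves the ribosome by a codon after each peptide bond, and read 10.53, 10.16, 9.74 and 10.22 on the Z16078526 arrays, against 11.11, 10.93, 11.10 and 11.16 on the DMSO arrays. All treated arrays lay below all DMSO arrays, 1.88-fold lower on average (log2 difference -0.91 ± 0.16 SE, adjusted p = 0.012), with the treated values spread over 0.78 and lowest on Z16078526 3. Without that array the difference was -0.77 (adjusted p = 0.00958). The other probes of Eef2 had differences of -0.81 (adjusted p over all probes = 0.0481) and -0.63 (0.17). Eef2k, the kinase that inhibits eEF2, was dim and had a difference of -0.39 (adjusted p = 0.478).

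The genes of the eEF1 complex were not called. Eef1a1, which delivers aminoacyl-tRNA and is among the most abundant mRNAs of most cells, was read by a single probe that gave 4.00, 4.94, 4.34 and 4.56 on the Z16078526 arrays, against 4.00, 4.00, 4.25 and 4.00 on the DMSO arrays, so this probe holds little signal and the value (log2 difference 0.40 ± 0.20 SE, adjusted p = 0.298) is measured against the floor. The exchange and anchor subunits lay at high signal with differences of -0.11 in Eef1b2, -0.01 in Eef1d and -0.07 in Eef1g (adjusted p 0.388 to 1). The intervals of these differences reached from -0.26 in Eef1b2 to 0.08 in Eef1d, for the probe used of each gene. Other bright probes of Eef1b2 had differences of -0.30 and 0.18 (adjusted p over all probes = 0.14 and 0.224). A dimmer probe of Eef1d had -0.33 (0.282). Eef1a2, the paralogue of muscle and neurons, was near the floor. Eef1e1, a scaffold of the tRNA synthetase complex, had 0.34 (adjusted p = 0.0722) and was called without Z16078526 3 (0.0222), and the methyltransferase genes Eef1akmt1 and Eef1aknmt had -0.33 (adjusted p = 0.175) and 0.00 (adjusted p = 1). Eef1akmt2, another of this kind, had no signal.

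Eif5a, whose product carries hypusine and helps ribosomes through proline-rich stretches, read 11.58, 11.51, 11.65 and 11.33 on the Z16078526 arrays, against 11.42, 11.43, 11.38 and 11.48 on the DMSO arrays on its brighter probe (log2 difference 0.09 ± 0.07 SE, adjusted p = 0.593, 95% interval of the difference -0.07 to 0.26). Its other probe read 11.57, 11.12, 10.69 and 10.90 on the Z16078526 arrays, against 11.58, 11.79, 11.71 and 11.78 on the DMSO arrays (log2 difference -0.65 ± 0.19 SE, adjusted p = 0.0749 over all probes). The direction therefore depended on the probe, and the mean of both gave -0.28 (adjusted p = 0.146). The paralogue Eif5a2 lay at the floor on all arrays.

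Of 6 mitochondrial factors, 2 were higher and 0 lower, with a median difference of 0.43. This median lies between the values of Gfm2 and Mtif2, and Mtif2 (0.40, adjusted p = 0.426) had no DMSO array above the floor. Gfm1, the mitochondrial elongation factor G that moves the ribosome, read 9.51, 9.13, 8.88 and 8.90 on the Z16078526 arrays, against 8.37, 8.42, 8.29 and 8.01 on the DMSO arrays. This 1.78-fold rise was the largest called increase of the 64 genes (log2 difference 0.83 ± 0.17 SE, adjusted p = 0.0189), and its call was lost without Z16078526 2 (0.0575) or DMSO 3 (0.0538). Gfm2, which works in ribosome recycling, read 9.16, 9.34, 9.43 and 9.49 on the Z16078526 arrays, against 8.81, 9.10, 8.83 and 8.83 on the DMSO arrays, 1.38-fold higher without overlap (log2 difference 0.46 ± 0.10 SE, adjusted p = 0.0216). The Gfm2 call was lost without any 1 array other than Z16078526 1 or DMSO 2 (adjusted p 0.055 to 0.0654).

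The mitochondrial initiation factor gene Mtif3 had a difference of 0.52 (adjusted p = 0.092) without overlap, and Mtif2, the other initiation factor gene, was above the floor on 2 treated arrays only. Tufm, the mitochondrial elongation factor Tu that brings in aminoacyl-tRNA, read 12.55, 12.62, 12.73 and 12.54 on the Z16078526 arrays, against 12.89, 12.74, 12.73 and 12.82 on the DMSO arrays. Its difference of -0.19 (adjusted p = 0.0741) had the sign opposite to Gfm1 and was called without Z16078526 3 (0.0365). Tsfm, the exchange factor of Tufm, had -0.09 (adjusted p = 0.684). Gfm1 and Gfm2 were called and Tufm and Tsfm were not, but these genes were not tested against each other. Leaving out single arrays changed the result of Gfm1, Gfm2 and Tufm.

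Probes of a gene did not always move alike. In 17 translation factor genes 2 or more probes had a mean log2 over 7. The 2 brightest had the same sign in 9, and among the 6 of these that were called in 4, the exceptions being Eif4a2 and Eif4enif1. Some opposite signs belong to differences near 0, as in Eif2b1 (0.04 and -0.05) and Eif3l (0.04 and -0.04). The count of signs alone therefore does not show that probes disagreed. The widest gap was in Eif4g2, an eIF4G relative (DAP5) that works without eIF4E. Its brighter probe read 9.94, 9.07, 7.76 and 9.22 on the Z16078526 arrays, against 9.91, 9.76, 10.05 and 9.98 on the DMSO arrays, with Z16078526 1 at the DMSO level and Z16078526 3 far below it (log2 difference -0.93 ± 0.44 SE, adjusted p = 0.265). Its other probe read 7.38, 7.34, 7.97 and 7.54 on the Z16078526 arrays, against 6.66, 6.83, 6.06 and 6.45 on the DMSO arrays, without overlap and in the other direction (log2 difference 1.06 ± 0.21 SE, adjusted p = 0.0219 over all probes). In Eif5 the probe used had a difference of 0.01 and the others -0.22 and -0.19, and on both of these Z16078526 1 was the highest and Z16078526 3 the lowest array.

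**Figure D3:**
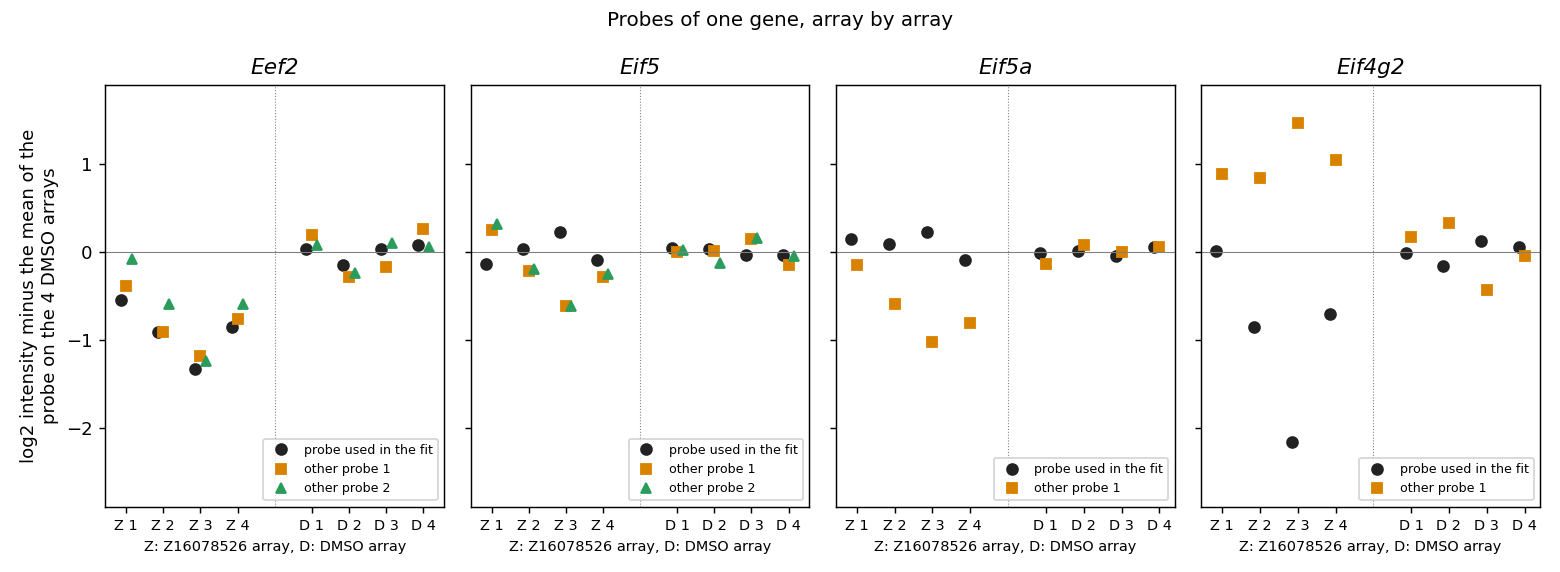
Log2 intensity of each probe minus its own mean on the 4 DMSO arrays (vertical axis), array by array (Z16078526 left, DMSO right), for Eef2, Eif5, Eif5a and Eif4g2. The 3 Eef2 probes fall together with the lowest points on Z16078526 3, while the probes of Eif5a and Eif4g2 separate on that array.

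The order Z16078526 1 highest and Z16078526 3 lowest was shared by 206 probes of other genes that were chosen for it, whose mean deviation was 0.64 on Z16078526 1, -0.72 on Z16078526 3 and -0.03 to 0.07 on the DMSO arrays. This deviation averaged 0.00 in both groups, so a fit with it as a covariate, chosen after seeing the data, leaves every difference as it was and narrows the SE of genes that share the order. Its calls give no support to those above.

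Genes that act on these factors were taken from a list of 62 symbols (Ict1 among them is an older name of Mrpl58), of which 54 were in the table. Of these, 15 were higher and 5 lower (37.0% called), with a median difference of 0.11, while over all genes 15.2% were called (22.7% of those with signal) and the median was 0.00. The counts of the smaller classes below stand beside the same 7.97% higher and 7.19% lower of all genes. Among 6 genes listed as eIF2 phosphatase genes and GCN2 partners, 5 were higher. These were Ppp1r15a, which brings phosphatase to eIF2 (log2 difference 0.63 ± 0.03 SE, adjusted p = 0.000222), its constitutive relative Ppp1r15b (log2 difference 0.36, adjusted p = 0.0143), the GCN2 inhibitor gene Impact (log2 difference 0.39, adjusted p = 0.0331), and Abcf3 (log2 difference 0.44, adjusted p = 0.00602), whose yeast relative partners GCN2. The other was Abcf2, which was listed with its relative Abcf3 and whose groups overlapped (log2 difference 0.27, adjusted p = 0.0411). Abcf1, of the same gene family, was listed with the poly(A) binding and helicase genes and was lower.

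Of 9 termination and recycling genes, 1 was higher and 2 lower. Abce1, which splits ribosomes after termination, read 8.39, 8.46, 8.86 and 8.34 on the Z16078526 arrays, against 6.96, 7.68, 6.82 and 6.79 on the DMSO arrays, a 2.73-fold rise (log2 difference 1.45 ± 0.23 SE, adjusted p = 0.00854). Pelo, which rescues stalled ribosomes, and Gspt1, the release factor eRF3, were lower by 1.29-fold (log2 difference -0.36, adjusted p = 0.00617) and 1.17-fold (log2 difference -0.22, adjusted p = 0.0312). Of 9 genes listed under poly(A) binding and helicases, Paip2, an inhibitor of poly(A) binding protein, rose 1.60-fold (log2 difference 0.68, adjusted p = 0.00317). The helicase genes Ddx3x (log2 difference 0.73, adjusted p = 0.0452) and Dhx36 (log2 difference 0.26, adjusted p = 0.00424) also rose, while Abcf1 fell (log2 difference -0.37, adjusted p = 0.0169).

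Of 16 genes between mTORC1 or the MNK kinases and eIF4E, 2 rose and 2 fell. Akt1s1, an inhibitory mTORC1 subunit, rose (log2 difference 0.33, adjusted p = 0.0248), and so did Mknk2, a kinase of eIF4E (log2 difference 0.23, adjusted p = 0.0379). Tsc2, an inhibitor of mTORC1, fell (log2 difference -0.36, adjusted p = 0.00562), as did Deptor, an mTOR inhibitor (log2 difference -0.31, adjusted p = 0.0453). Of 7 genes for diphthamide and selenocysteine factors, Dph3, needed for the diphthamide of eEF2, rose 1.48-fold (log2 difference 0.56, adjusted p = 0.0107). No hypusine enzyme was among these genes. Of 7 genes of mitochondrial termination and related steps, 3 rose: the release factor genes Mtrf1l (log2 difference 0.52, adjusted p = 0.00186) and Mrpl58 (log2 difference 0.48, adjusted p = 0.00212), and Lrpprc, which stabilises mitochondrial mRNA (log2 difference 0.43, adjusted p = 0.0191).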

How the data were processed

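Total RNA of 8 samples was labelled with biotin and read on arrays with Illumina probe identifiers. The authors deposited 1 table with a linear intensity per probe and array for 25697 probes; GenomeStudio is named in the submitters' processing notes, with its version and settings not given in the sources used here. In the deposited intensities 28.28% to 28.44% of each array lay below 0 and all columns shared an upper quartile of 307.989 and a maximum of 41175.02, a pattern that background subtraction and quantile normalization leave, though no source used here names those steps. No detection p-values were used. With 4 arrays a group, array number limits precision.

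Values under 16 were raised to 16 before taking log2. Probes were named through the platform table (23978 with 1 symbol, 1719 with none), and RefSeq (GRCm38.p6), which held 99.93% of the gene identifiers, changed no symbol. Per gene the probe with the highest mean intensity was used, giving 16593 genes, of which 5504 without signal above the floor were kept. Groups were compared with limma 3.58.1 in R 4.3.3 (lmFit, eBayes with an intensity trend, two-sided, prior degrees of freedom 0.574), adjusted by Benjamini-Hochberg over all genes and called at 0.05. On data simulated over 16593 genes, 65 of 100 genes changed 1.5-fold and 86 of 100 changed 2-fold were recovered. The changed genes were drawn from those with a DMSO mean log2 above 7, so the rates do not cover dimmer genes. Fewer genes were changed than the 2516 called in the real data, so the rates may not carry over.

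The genes, lists and rules were chosen with earlier results of these data known. Values on each array are given, in each complex, for up to 4 called genes with the largest difference whose groups do not overlap, and for a panel of 11 genes whatever their result, of which 9 were in the table. Eif4a2, Eif4g2, the second probe of Eif5a and Abce1 were added after their values were seen, and so were the pyrimidine search, the fit of every probe singly and the uneven-signal covariate. Up to 4 called genes per direction are named from each class of the list of genes acting on the factors, by smallest p. Whether the same replicate number pairs arrays is not stated. Deviations of same-numbered arrays correlated with r of -0.06, 0.04, -0.15 and 0.10 over 7965 genes, which does not settle it, and the main fit used no pairing. Alternatives covered normalization, floor, filters, variance model, replicate block, choice of probe, threshold and each array left out.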

Additional observations from a re-analysis of the deposited data

Results flagged for a closer look

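Of 50 groups of 4 values among the genes given array by array, 3 held an array far from the other 3 by Dixon's criterion. Chance alone meets it in about 5% of groups. Both groups of Eif2ak4 lay at the floor throughout and could not be examined. Eif4enif1 read 10.03 on Z16078526 1 and 9.86 to 9.87 on the other Z16078526 arrays. Gfm2 read 9.10 on DMSO 2 and 8.81 to 8.83 on the other DMSO arrays. Eef1a1 read 4.25 on DMSO 3 and was at the floor of 4 on the other DMSO arrays. With these tied at the floor, any value above it meets the criterion, so the 5% does not apply there.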

How the results depend on the processing

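Over 21 other settings, all judged at an adjusted p of 0.05, none of the 18 called genes chosen for array values turned sign. In all of these settings 5 kept their calls (Eif2s3x, Eif2b5, Eif3f, Eif4e3 and Eif4h). Of these 5, Eif2s3x (adjusted p = 0.0136 in limma) and Eif2b5 (0.012) did not pass 0.01. Eif2s3x, Eif3f and Eif4h have 1 probe, so the choice of probe could not change their values. Whether the replicate numbers pair arrays is not stated, and 2 of 4 treated arrays correlated best with the DMSO array of their own number. With the replicate number as a block, 3 translation factor genes were higher and 4 lower, and 1123 of all genes were called against 2516. At an adjusted p of 0.01 the counts were 3, 4 and 1194, and with a change over 1.5-fold as well as 0.05 they were 3, 3 and 884. With only genes above the median of all probes on at least 4 arrays, which tests fewer genes, 15 were higher and 14 lower. Leaving out each array in turn gave 6 to 12 higher, 6 to 9 lower and 1774 to 2465 of all genes. 1 of the 21 settings, the uneven-signal covariate, was chosen after seeing the data and leaves differences unchanged by construction. So do the replicate block, the fit without intensity trend, robust eBayes and the filters on genes. In these settings no sign could turn, and only the SE or the adjusted p could change. Eif5a turned to -0.28 with the mean of its probes, whose second probe moved the other way. Median centring, a second quantile normalization and a pseudocount of 16 left the same 19 genes called. Genes at or near the floor, such as Eef1a1 and Eif4e, have little signal over background, and their differences are limited by it.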
